A study of Mus musculus with 10 samples.

Results

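Wild type mouse cultures were compared between day 14 and day 8 of in vitro cardiac differentiation. The comparison uses 4 of the study's 10 RNA sequencing libraries, 2 from each day, and they were chosen by genotype and day as the labels give them, not by any measured value. The study as a whole set wild type against Rybp-null cells, at the embryonic stem (ES) cell stage, called day 0, and at both later days, to follow gene expression along cardiac differentiation. RYBP is a zinc finger protein that belongs to non-canonical forms of Polycomb repressive complex 1. All 4 libraries come from ES cells of the 129x1 x 129S1 background that carry no engineered allele named in the labels, differentiated through embryoid bodies made in hanging drops, and both days are labelled as ES-derived cardiac cultures. No sort is named, so each library holds the RNA of every cell type in a dish. The labels do not say whether the 2 replicates of a day came from separate cultures, so the spread between replicates may be technical. All 10 libraries were fitted together, so p-values rest on the spread between replicates of both genotypes, not of these 4 libraries alone. Where they are used as a comparison, the Rybp-null libraries of days 8 and 14 (2 each, same background and protocol) are named as such.

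In embryoid bodies, ES cells form mesoderm, and from mesoderm arise beating cardiomyocytes, smooth muscle, endothelium, fibroblasts and a wave of blood like that of the yolk sac. That early blood consists of primitive erythroid cells, which carry embryonic globins, and of macrophages, which persist and can fuse into osteoclasts. Cultures of this kind lose some cell types and gain others with time, while fibroblast-like cells lay down and remodel an extracellular matrix. In bulk RNA from such a mixture, fewer cells of a type and less RNA per cell cannot be told apart.

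Library totals were 3028153 to 3812029 counts for these 4 libraries, and levels are given as CPM, counts per 1000000 of a library's total after TMM scaling. Counts of the replicates ranked genes alike, with a Spearman correlation across genes of 0.972 at day 8 and 0.969 at day 14. Rybp itself was at 38.3 and 43.1 CPM at day 8 and at 19.5 and 23.5 CPM at day 14, against 76.2 CPM in the wild type day 0 library (log2FC -0.92, SE 0.28, adjusted p = 0.0997), and so did not pass the test; log2FC is the log2 fold change of day 14 over day 8. The Rybp-null libraries had 0.484 and 0.288 CPM at day 8 and 1.13 and 0.494 CPM at day 14, near 0 in every one. The labelled cardiac identity could be checked with 10 cardiomyocyte markers, whose summed level was 2654 and 2181 CPM at day 8 and 1051 and 938 CPM at day 14, against 365 CPM in wild type ES cells. All values for wild type ES cells, here and below, come from the single wild type day 0 library. Ttn made up 341 CPM of that ES cell sum, and in the wild type cultures was at 1258 and 918 CPM at day 8 and at 347 and 292 CPM at day 14; the other 9 markers summed to 1395 and 1263 CPM at day 8 and 704 and 645 CPM at day 14, against 23.8 CPM in ES cells. Myh6 and Tnnt2, which encode cardiac alpha myosin and cardiac troponin T, were present on both days, whereas the atrial hormone gene Nppa had 3 and 0 counts at day 8 and 0 and 1 at day 14. Of 6 skeletal muscle markers, Myod1, Myog and Ckm had 0 counts in all 4 libraries, as did the cartilage marker Acan and the fat cell markers Adipoq, Plin1 and Cidec. The day 14 replicates stood apart in placental genes: Tpbpa, a trophoblast marker, was at 0 CPM in both libraries at day 8 and at 45.9 and 4.59 CPM at day 14, and Tfap2c, a trophoblast transcription factor, at 0 and 2.25 CPM at day 8 and at 48.4 and 3.06 CPM at day 14, so that replicate 1 was the high library for both. Osteoclast genes such as Ctsk and Acp5 were higher in replicate 2 of that day.

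Between day 8 and day 14, 390 genes rose and 249 fell among 15819 tested, by edgeR's quasi-likelihood test at an adjusted p under 0.05. These are 2.47% and 1.57% of the genes tested, 4.04% together, and the median log2 fold change (day 14 over day 8) over all of them was 0.00. Counts of called genes on the lists below stand beside these shares, at which a list can hold a few called genes with no change particular to it. A change of at least 2-fold was seen in 364 of the genes that rose and 212 of those that fell. The counts depended on single libraries. Without wild type day 8 replicate 1, 113 rose and 64 fell; without day 8 replicate 2, 62 and 46. Leaving out day 14 replicate 1 gave 208 and 101, and leaving out day 14 replicate 2 gave 96 and 35. Omission of a Rybp-null library of day 8, which is in neither group compared, gave 384 genes that fell (replicate 1) or 380 (replicate 2). Such a library enters the shared estimate of spread, the filter on low counts and the scaling. In all, 80 genes, 52 higher and 28 lower, passed the test whichever 1 of the 8 libraries of days 8 and 14 was left out. Where a gene named in what follows lost its call, each such library is named with the log2 fold change found without it. A library named by day and replicate alone is wild type. With 2 libraries a day, libraries of the days often fail to overlap without any change. Where such separation is mentioned it is a description, not evidence beside the test. Annotated exons of another gene overlap those of Acp5, Alas2, Atp2a2, Cdkn1a, Col3a1, Csf1r, Ctsb, Cyp51, Fn1, H19, Igf2, Krt7, Krt8, Lig1, Lox, Lss, Ltbp3, Meg3, Mest, Myh6, Myh7, Myl4, Mylk, Nr2f2, Pdgfa, Pdgfra, Plagl1, Plk1, Pou5f1, Prelp, Rfc4, Tgfb2, Tgfb3, Timp3 and Ttn, and because no source used here gives the strand setting of the counting, the values of these genes are uncertain to that extent.

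Genes of red blood cells fell. Of 17 tested genes on the list of globins and erythroid genes, 12 fell, none rose and all 17 had a log2 fold change below 0, with a median log2 fold change of -4.68 against 0.00 over all genes; with genes of few counts at their ratio or bound, that median was -4.41. Hbb-y, an embryonic beta-type globin with the lowest fitted log2 fold change of all called genes, was at 168 and 121 CPM at day 8 and at 0.608 and 0 CPM at day 14. Its level at day 8 was 516 (95% counting interval 142 to 4264) times that at day 14 (log2FC -8.86, SE 0.95, adjusted p = 0.00216). Such intervals cover counting error only, and the fitted fold change of a gene with so few counts depends on the prior count that edgeR adds. The libraries of the days did not overlap, and replicate 2 of day 14 held no count of Hbb-y. Hbb-bh1, another embryonic globin, was at 58.1 and 61.7 CPM at day 8 and at 0.912 and 0 CPM at day 14, a ratio of 144 (95% counting interval 49.0 to 702), with log2FC -7.05, SE 0.53, adjusted p = 6.15e-05. The alpha-type globin Hba-a2 was at 147 and 133 CPM at day 8 and at 4.56 and 4.34 CPM at day 14 (log2FC -4.97, SE 0.58, adjusted p = 0.00182); reads of Hba-a2 and its near-identical copy Hba-a1 could be shared, so the value of each is uncertain. Hba-x, the embryonic zeta-type globin, was at 595 and 685 CPM at day 8 and at 13.7 and 1.79 CPM at day 14 (log2FC -6.42, SE 1.11, adjusted p = 0.0398). The call of Hba-x was lost without any wild type library except day 14 replicate 1 (-5.54 to -6.52) or Rybp-null day 14 replicate 2 (-6.43). With no filter on low counts Hba-x was not called either.

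Genes for other parts of the red cell fell together with the globins. For the cell membrane, Slc4a1, the band 3 anion exchanger, was at 45.4 CPM in both libraries at day 8 and at 0.912 and 0 CPM at day 14, a day 8 to day 14 ratio of 109 (95% counting interval 36.9 to 531), with log2FC -6.65, SE 0.65, adjusted p = 0.000264. Alas2, which catalyses the first step of heme synthesis in erythroid cells, was at 47.0 and 42.8 CPM at day 8 and at 2.43 and 2.30 CPM at day 14 (log2FC -4.23, SE 0.34, adjusted p = 6.15e-05). Both genes were lower in both day 14 libraries. Among regulators, the transcription factor gene Nfe2 was at 27.8 and 42.0 CPM at day 8 and at 1.22 and 1.02 CPM at day 14 (log2FC -4.93, SE 0.61, adjusted p = 0.00117). Hemgn, a nuclear protein of blood precursors, was at 11.8 and 9.58 CPM at day 8 and at 0.304 and 0.255 CPM at day 14, a ratio of 38.3 (95% counting interval 10.2 to 322), with log2FC -5.11, SE 0.66, adjusted p = 0.00134. Gata1, the master regulator of erythroid genes, was at 12.5 and 10.7 CPM at day 8 and at 0.912 and 0 CPM at day 14, a ratio of 27.7 (95% counting interval 9.13 to 137), with log2FC -4.68, SE 0.92, adjusted p = 0.0134. For Gata1, no call was made without any wild type library except day 14 replicate 1 (-3.62 to -4.78). Hbb-y, Hbb-bh1, Hba-a2, Slc4a1, Alas2, Nfe2 and Hemgn passed without any 1 of the 8 libraries. Of the members that did not pass, Tfrc, the transferrin receptor of many dividing cells, was at 356 and 374 CPM at day 8 and at 235 and 144 CPM at day 14 (log2 fold change -0.95, adjusted p = 0.0857), and the adult globin Hbb-bs at 5.43 and 10.1 CPM at day 8 and at 3.04 and 1.02 CPM at day 14 (-1.96, adjusted p = 0.112). List members that fell numbered 7 without day 8 replicate 2.

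**Figure D1:**
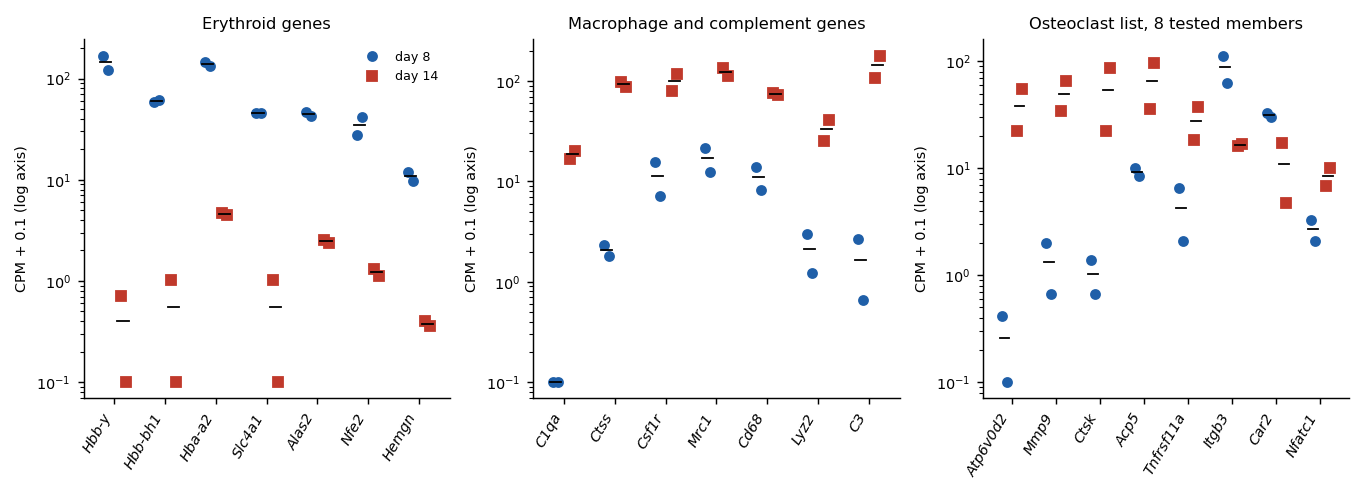
Level of erythroid genes (left), macrophage and complement genes (middle) and the 8 tested members of the osteoclast list (right) in the 4 wild type libraries, as CPM + 0.1 on a log axis. Points are single libraries (circles day 8, squares day 14) and bars are means of n = 2; each erythroid gene shown is lower and each macrophage or complement gene higher in both day 14 libraries, while on the right Itgb3 and Car2 are lower at day 14 and the other 6 genes higher.

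The upstream sequence of Alas2 is shown because a heme synthesis gene under erythroid factors is a textbook example for the motifs searched. Matches were sought on both strands, in the 250 bases before the start site, for AGATAA (the letters bound by GATA factors) and for CCNCNCCC (a CACCC-type box); capitals mark the matches, no GATA match shares bases with a CACCC-type match in the sequence shown, and several CACCC-type matches overlap each other. The sequence is from RefSeq, build GRCm38.p6, printed 5′ to 3′ toward the start site.
Alas2, chrX:150547167-150547416, plus strand: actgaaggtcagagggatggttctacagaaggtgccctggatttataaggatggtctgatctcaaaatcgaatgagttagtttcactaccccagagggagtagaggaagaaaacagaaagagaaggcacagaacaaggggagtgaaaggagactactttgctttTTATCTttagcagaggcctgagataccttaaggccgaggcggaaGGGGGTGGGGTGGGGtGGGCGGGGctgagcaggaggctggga
The table held promoters for 14 genes of the list, with 15 promoters. AGATAA was, on either strand, in 4 of these 15, against 9.99% of 32851 promoters of the same length, and CCNCNCCC in 9 of 15, against 45.9%. Among the 8 promoters of members that fell, 2 held the GATA letters and 4 the CACCC-type letters. A match is a description of the letters only.

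Macrophage genes rose over the same days. Of 30 tested macrophage genes, 14 rose and none fell, with a median log2 fold change of 2.24 (2.17 with genes of few counts at their ratio or bound). C1qa, a chain of complement C1q made by tissue macrophages, was at 0 CPM in both libraries at day 8 and at 16.7 and 20.2 CPM at day 14 (log2FC 9.14, SE 1.09, adjusted p = 0.00162). With 3 counts, about the one-sided 95% upper limit of an observed 0, put in place of day 8, the rise was at least 41.4-fold. Csf1r, the receptor for the growth factor that macrophages depend on, was at 15.3 and 7.05 CPM at day 8 and at 79.7 and 118 CPM at day 14 (log2FC 3.15, SE 0.36, adjusted p = 0.000773). Both genes were higher in both day 14 libraries. The scavenging receptor gene Mrc1 was at 21.4 and 12.4 CPM at day 8 and at 135 and 113 CPM at day 14 (log2FC 2.88, SE 0.28, adjusted p = 0.000264). Cd68, a lysosomal membrane glycoprotein, was at 13.7 and 8.17 CPM at day 8 and at 76.0 and 72.5 CPM at day 14 (log2FC 2.77, SE 0.32, adjusted p = 0.000821). In each of these genes both day 14 libraries were above both day 8 libraries. Lyz2, lysozyme, was at 2.87 and 1.13 CPM at day 8 and at 25.2 and 41.1 CPM at day 14 (log2FC 4.06, SE 0.57, adjusted p = 0.00217). The scavenger receptor gene Msr1, which is not on the list, was at 0.319 and 0 CPM at day 8 and at 19.8 and 27.1 CPM at day 14, a day 14 to day 8 ratio of 159 (95% counting interval 28.1 to 6297), with log2FC 7.0, SE 1.00, adjusted p = 0.00316. Laptm5, a lysosomal protein of blood cells, was at 29.7 and 8.17 CPM at day 8 and at 61.4 and 77.9 CPM at day 14, and Apoe, which carries lipid out of macrophages and other cells, at 18.8 and 18.3 CPM at day 8 and at 40.8 and 52.6 CPM at day 14; neither passed (1.89, adjusted p = 0.122 and 1.33, adjusted p = 0.0516). Lyz2 lost its call without day 8 replicate 2 (3.52). The call of Msr1 was lost without day 8 replicate 2 (6.06). On the list, genes that rose numbered 5 without day 8 replicate 2, 9 without day 14 replicate 1 and 7 without day 14 replicate 2. Microglia and macrophages of several tissues share these genes.

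Genes for complement and for digestion in lysosomes were also higher. Of 17 tested genes for inflammation and complement, 5 rose and 1 fell (median log2 fold change 2.06). C3, the central complement protein, was at 2.56 and 0.564 CPM at day 8 and at 107 and 178 CPM at day 14 (log2FC 6.54, SE 0.70, adjusted p = 0.00113). Serping1, the inhibitor of the C1 complex, was at 16.3 and 20.9 CPM at day 8 and at 80.3 and 124 CPM at day 14 (log2FC 2.45, SE 0.37, adjusted p = 0.00327). Ptgs2, the inducible cyclooxygenase, was the member that fell, from 28.3 ± 7.80 to 9.59 ± 0.204 CPM (SD, n = 2; -1.56, adjusted p = 0.0407). Of 26 tested lysosome and phagocytosis genes, 7 rose and none fell (median 0.63). Ctss, cathepsin S of antigen-presenting cells, was at 2.24 and 1.69 CPM at day 8 and at 98.2 and 86.3 CPM at day 14 (log2FC 5.54, SE 0.44, adjusted p = 6.15e-05). The widely expressed Ctsb, cathepsin B, was at 76.0 and 67.1 CPM at day 8 and at 219.6 and 248 CPM at day 14 (log2FC 1.71, SE 0.18, adjusted p = 0.000501). C3, Ctss and Ctsb passed without any 1 of the 8 libraries. For Serping1, no call was made without day 8 replicate 1 (2.29) or day 14 replicate 2 (2.11). Ptgs2 lost its call without any 1 of the 4 wild type libraries (-1.25 to -1.82). The complement list's count of genes that rose was 2 without day 8 replicate 1 or day 14 replicate 2; the lysosome list's was 2 without any wild type library except day 14 replicate 1 and 13 without either Rybp-null day 8 library.

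Osteoclasts are macrophage-lineage cells that dissolve bone, and several of their genes rose. Of 8 tested members of the osteoclast list, 5 rose and 1 fell (median log2 fold change 2.80). Atp6v0d2, a subunit of the proton pump used by osteoclasts, was at 0.319 and 0 CPM at day 8 and at 22.2 and 54.6 CPM at day 14, a day 14 to day 8 ratio of 266 (95% counting interval 47.4 to 10544), with log2FC 7.72, SE 0.82, adjusted p = 0.000454. Mmp9, a gelatinase, was at 1.92 and 0.564 CPM at day 8 and at 34.7 and 65.3 CPM at day 14 (log2FC 5.34, SE 0.67, adjusted p = 0.00123). Ctsk, the collagen-cutting cathepsin K, was at 1.28 and 0.564 CPM at day 8 and at 22.5 and 86.3 CPM at day 14 (log2FC 5.87, SE 0.79, adjusted p = 0.00210). Acp5, the tartrate-resistant acid phosphatase, was at 9.90 and 8.45 CPM at day 8 and at 35.9 and 96.2 CPM at day 14 (log2FC 2.85, SE 0.50, adjusted p = 0.00786). In all 4 genes replicate 2 of day 14 was the higher library and both day 14 libraries lay above both of day 8. Tnfrsf11a, which encodes RANK, the receptor that starts osteoclast formation, was at 6.39 and 1.97 CPM at day 8 and at 18.2 and 37.3 CPM at day 14 (log2FC 2.75, SE 0.53, adjusted p = 0.0113). Itgb3, an integrin subunit that platelets and other cells share, fell, from 88.1 ± 35.3 to 16.5 ± 0.514 CPM (-2.41, adjusted p = 0.00350). The fusion genes Dcstamp and Ocstamp and the calcitonin receptor gene Calcr were at no more than 2.81 CPM in any of the 4 libraries and were not tested. Dcstamp had 1 and 3 counts at day 8 and 6 and 11 at day 14. Ocstamp had 1 and 1, then 2 and 1, and Calcr 0 and 5, then 6 and 2. The call of Ctsk was lost without day 8 replicate 2 (5.38). For Acp5, no call was made without any wild type library except day 14 replicate 1 (1.97 to 2.97). Tnfrsf11a lost its call without day 8 replicate 2 (2.12) or day 14 replicate 2 (2.14). The call of Itgb3 was lost without day 14 replicate 2 (-2.45). The list's count of genes that rose was 2 without day 8 replicate 2 and 3 without day 14 replicate 2, and its count of genes that fell was 0 without day 14 replicate 2.

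**Figure D2:**
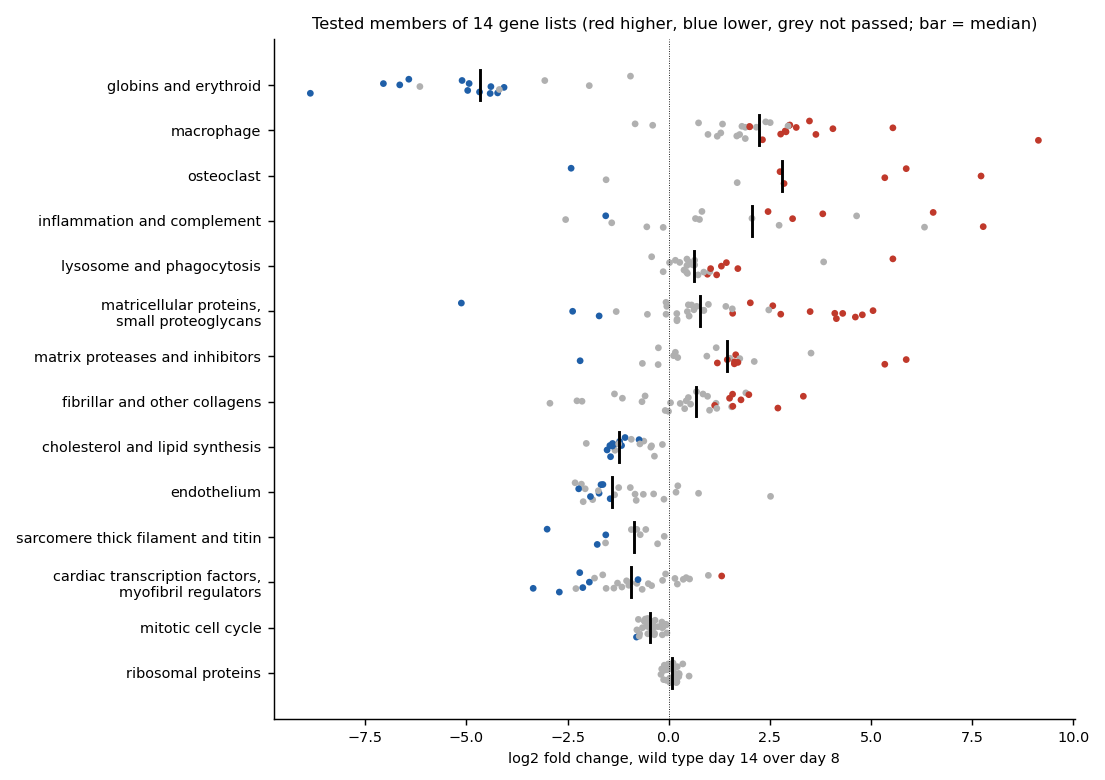
Log2 fold change (day 14 over day 8, horizontal axis) of every tested member of 14 gene lists in wild type; each point is 1 gene, red where it rose, blue where it fell and grey where it did not pass, and black bars are medians. The erythroid median lies at -4.68, the macrophage median at 2.24, the cholesterol median at -1.22 and the ribosomal protein median at 0.08.

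Transcripts of matrix genes changed in both directions. Of 34 tested genes for matricellular proteins and small proteoglycans, 11 rose and 3 fell (median log2 fold change 0.78). Of the list's 8 tested genes for small leucine-rich proteoglycans, which coat and space collagen fibrils, 6 rose and none fell; this family was picked out after its values were seen. Dcn, decorin, was at 38.0 and 30.4 CPM at day 8 and at 373 and 397 CPM at day 14 (log2FC 3.49, SE 0.22, adjusted p = 2.02e-05), the lowest adjusted p of all genes. Bgn, biglycan, was at 5.43 and 7.33 CPM at day 8 and at 113 and 115 CPM at day 14 (log2FC 4.14, SE 0.32, adjusted p = 6.15e-05). For both genes the lowest day 14 library was several times the highest day 8 library. Ogn, osteoglycin, was at 2.24 and 0.845 CPM at day 8 and at 24.0 and 28.8 CPM at day 14 (log2FC 4.10, SE 0.54, adjusted p = 0.00153). Prelp, prolargin, was at 1.6 and 0.282 CPM at day 8 and at 20.4 and 25.5 CPM at day 14 (log2FC 4.61, SE 0.65, adjusted p = 0.00215). Members of the family that did not pass were Lum, lumican, at 79.5 and 66.5 CPM at day 8 and at 145 and 121 CPM at day 14 (0.87, adjusted p = 0.0884), and Omd, osteomodulin (0.20, adjusted p = 0.879). Against the 4 genes above, Vcan, the large proteoglycan versican of the embryonic heart's jelly and cushions, was at 1782 and 1759 CPM at day 8 and at 599 and 475 CPM at day 14 (log2FC -1.72, SE 0.19, adjusted p = 0.000571). Postn, periostin, a matricellular protein of fibroblasts and cardiac cushions, was at 5050.3 and 4324 CPM at day 8 and at 1045 and 762 CPM at day 14 (log2FC -2.38, SE 0.37, adjusted p = 0.00893). The day 8 and day 14 libraries did not overlap in Dcn, Bgn, Ogn, Prelp, Vcan or Postn. Fn1, fibronectin, was at 4601 and 4221 CPM at day 8 and at 3014 and 3105 CPM at day 14 and did not pass (-0.53, adjusted p = 0.287). Dcn, Bgn, Ogn, Prelp and Vcan passed without any 1 of the 8 libraries. For Postn, no call was made without any wild type library except day 14 replicate 1 (-2.16 to -2.48), Rybp-null day 8 replicate 1 (-2.38) or Rybp-null day 8 replicate 2 (-2.38). List members that rose numbered 7 without day 8 replicate 1, 4 without day 8 replicate 2 and 6 without day 14 replicate 2, and of genes that fell 1 without any wild type library except day 14 replicate 1.

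Among 31 tested collagen genes 8 rose and none fell (median log2 fold change 0.68). Fitted to the 4 wild type libraries alone, 12 of 27 rose and 4 fell, and without either Rybp-null day 8 library 11 rose and 1 fell. Col6a2, a chain of the beaded-filament collagen VI, was at 7.99 and 5.35 CPM at day 8 and at 60.5 and 73.0 CPM at day 14 (log2FC 3.33, SE 0.41, adjusted p = 0.00107). Its partner chain Col6a1 was at 30.7 and 16.1 CPM at day 8 and at 136 and 165 CPM at day 14 (log2FC 2.70, SE 0.40, adjusted p = 0.00415). Col1a2, a chain of collagen I, was at 1555 and 1239 CPM at day 8 and at 3890.3 and 4030.0 CPM at day 14 (log2FC 1.5, SE 0.26, adjusted p = 0.00743). Col1a1, the other chain of collagen I, did not pass: it was at 2350.3 and 1925 CPM at day 8 and at 4450.3 and 5155 CPM at day 14 (log2FC 1.17, SE 0.42, adjusted p = 0.200), with libraries that did not overlap between days. Of 24 tested genes for collagen processing and crosslinking, 4 rose and none fell, against 7 and 1 of 23 with the 4 wild type libraries alone; Lox, lysyl oxidase, which crosslinks collagen and elastin, was at 1.6 and 1.41 CPM at day 8 and at 20.4 and 28.3 CPM at day 14 (log2FC 4.0, SE 0.66, adjusted p = 0.00558). Of 21 tested matrix protease and inhibitor genes, 8 rose and 1 fell (median 1.45), with Mmp9 and Ctsk among those that rose. Mmp2, a gelatinase of fibroblasts, went from 44.2 ± 3.91 to 139 ± 22.5 CPM (1.66, adjusted p = 0.00786), the tissue inhibitor Timp3 from 153 ± 19.7 to 500.5 ± 73.4 CPM (1.71, adjusted p = 0.00932), and Serpine2, an inhibitor of thrombin and other serine proteases, from 88.1 ± 17.3 to 271 ± 17.2 CPM (1.62, adjusted p = 0.00458). Adamts12, a secreted metalloprotease, was the member that fell (-2.19, adjusted p = 0.00897).

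Col6a2 passed without any 1 of the 8 libraries; several other calls on collagens and proteases did not. Col6a1 lost its call without day 8 replicate 2 (2.30). The call of Col1a2 was lost without any wild type library except day 14 replicate 1 (1.35 to 1.68). For Lox, no call was made without any wild type library except day 14 replicate 1 (3.74 to 4.08). Mmp2 lost its call without any wild type library except day 14 replicate 1 (1.48 to 1.75). The call of Timp3 was lost without any wild type library except day 14 replicate 1 (1.55 to 1.85), Rybp-null day 8 replicate 1 (1.70) or Rybp-null day 8 replicate 2 (1.71). For Serpine2, no call was made without day 8 replicate 2 (1.43). Adamts12 lost its call without day 8 replicate 1 (-1.91), day 14 replicate 1 (-2.27) or day 14 replicate 2 (-2.10). The collagen list's count of genes that rose was 3 without day 8 replicate 1 or day 14 replicate 2, 1 without day 8 replicate 2 and 5 without day 14 replicate 1; for the protease list it was 3 without day 8 replicate 1 or day 14 replicate 2, 1 without day 8 replicate 2 and 5 without day 14 replicate 1, and its count of genes that fell was 0 without day 8 replicate 1, day 14 replicate 1 or day 14 replicate 2 and 2 without either Rybp-null day 8 library. For the processing list, the count that rose was 1 without day 8 replicate 1, 0 without day 8 replicate 2 or day 14 replicate 2, 2 without day 14 replicate 1 and 7 without either Rybp-null day 8 library. The summed level of 7 fibroblast markers was 8566 and 7248 CPM at day 8 and 7449.8 and 7825 CPM at day 14, but Postn made up much of the day 8 sums. The other 6 markers summed to 3516 and 2923 CPM at day 8 and 6405 and 7063 CPM at day 14, higher in both day 14 libraries. Col1a1, which did not pass, made up most of these sums, with 2350 and 1925 CPM at day 8 and 4450 and 5155 CPM at day 14. Col3a1, Dcn, Lum and Thy1 were also higher in both day 14 libraries. Pdgfra was lower, at 195 and 192 CPM at day 8 and at 142 and 168 CPM at day 14. Vim, the mesenchymal intermediate filament, was at 584 and 480.2 CPM at day 8 and at 503 and 535 CPM at day 14 (-0.04, adjusted p = 0.984), with overlapping libraries. The part of changing cell numbers in these results was not tested.

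**Figure D3:**
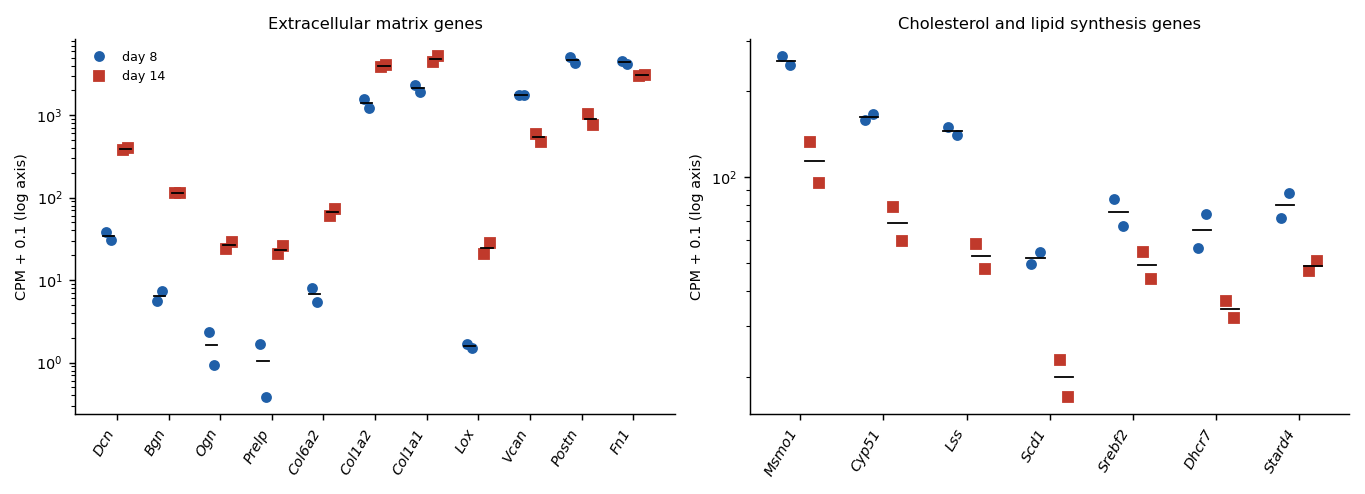
Level of extracellular matrix genes (left) and of cholesterol and lipid synthesis genes (right) in the 4 wild type libraries, as CPM + 0.1 on a log axis; points are single libraries (circles day 8, squares day 14) and bars are means of n = 2. Dcn, Bgn, Ogn and Prelp sit higher and Vcan and Postn lower at day 14, and all 7 genes on the right sit lower at day 14, of which Srebf2, Dhcr7 and Stard4 did not pass the test.

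Genes for growth factors that act on fibroblasts were among those that rose and among those that fell. Of 43 tested genes of the BMP and TGF-beta pathway, 5 rose and 2 fell (median log2 fold change 0.23). Over all genes tested 2.47% rose and 1.57% fell, so the few falls on this list and the next are not read as a result about either pathway. Among ligands, Tgfb3 was at 20.1 and 21.7 CPM at day 8 and at 99.2 and 124 CPM at day 14 (log2FC 2.41, SE 0.25, adjusted p = 0.000445). In contrast, Tgfb2, the isoform prominent in the embryonic heart, was at 144 and 164 CPM at day 8 and at 80.3 and 63.3 CPM at day 14 (log2FC -1.10, SE 0.21, adjusted p = 0.0103). The receptor gene Tgfbr2 went from 15.9 ± 4.58 to 43.4 ± 5.04 CPM (1.45, adjusted p = 0.0258), and Ltbp3, which binds latent TGF-beta in the matrix, from 4.29 ± 1.10 to 27.3 ± 1.41 CPM (2.65, adjusted p = 0.00889). Of 30 tested genes of the FGF, IGF and PDGF pathway, 5 rose and 1 fell (median 0.17). Fgf1, acidic fibroblast growth factor, was at 0.639 and 3.38 CPM at day 8 and at 34.4 and 37.8 CPM at day 14 (log2FC 4.10, SE 0.60, adjusted p = 0.00300). Igf1, an insulin-like growth factor, was at 75.7 and 69.3 CPM at day 8 and at 206 and 235 CPM at day 14 (log2FC 1.6, SE 0.25, adjusted p = 0.00430). Pdgfa, a platelet-derived growth factor chain, was at 45.0 and 61.4 CPM at day 8 and at 155 and 145 CPM at day 14 (log2FC 1.49, SE 0.24, adjusted p = 0.00466). Tgfb3 and Fgf1 passed without any 1 of the 8 libraries. The call of Tgfb2 was lost without any wild type library except day 14 replicate 1 (-0.94 to -1.19). For Tgfbr2, no call was made without any 1 of the 4 wild type libraries (1.18 to 1.77). Ltbp3 lost its call without any wild type library except day 14 replicate 1 (2.42 to 2.94). The call of Igf1 was lost without any wild type library except day 14 replicate 1 (1.5 to 1.67). For Pdgfa, no call was made without day 8 replicate 1 (1.29). The TGF-beta list's count that rose was 2 without day 8 replicate 1, 1 without day 8 replicate 2 or day 14 replicate 2 and 3 without day 14 replicate 1, and its count that fell was 0 without any wild type library except day 14 replicate 1 and 1 without day 14 replicate 1. For the FGF, IGF and PDGF list, the count that rose was 1 without day 8 replicate 1 and 2 without day 8 replicate 2 or day 14 replicate 2, and that fell 0 without any wild type library and 2 without either Rybp-null day 14 library.

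Of the heart muscle genes that passed, most fell, and most of those tested did not pass. Of 10 tested thick filament and titin genes, 3 fell and none rose, and all 10 had a log2 fold change below 0 (median -0.86). Ttn, the giant protein that spans the sarcomere as a spring, was at 1258 and 918 CPM at day 8 and at 347 and 292 CPM at day 14 (log2FC -1.77, SE 0.24, adjusted p = 0.00162). The atrial light chain gene Myl7 was at 18.2 and 13.8 CPM at day 8 and at 2.43 and 1.53 CPM at day 14 (log2FC -3.01, SE 0.59, adjusted p = 0.0162). Myl4, another atrial light chain, was at 47.0 and 35.5 CPM at day 8 and at 11.3 and 16.6 CPM at day 14 (log2FC -1.56, SE 0.33, adjusted p = 0.0199). Each of the 3 was lower in both day 14 libraries. Of 19 tested thin filament and Z-disc genes 14 had a log2 fold change below 0 and 5 above (median -0.55), and only Nebl, the Z-disc protein nebulette, passed, at 177 and 133 CPM at day 8 and at 34.4 and 24.0 CPM at day 14 (log2FC -2.41, SE 0.39, adjusted p = 0.00546). Fitted to the 4 wild type libraries alone, 2 of 15 rose and 5 fell. The best known contractile genes did not pass: Tnnt2 was at 520.3 and 464 CPM at day 8 and at 281 and 318 CPM at day 14 (-0.72, adjusted p = 0.519) and Myh6 at 182 and 179 CPM at day 8 and at 132 and 112 CPM at day 14 (-0.57, adjusted p = 0.646). Myh7, the beta myosin of embryonic ventricle, was at 140.2 and 101 CPM at day 8 and at 49.0 and 32.7 CPM at day 14 (-1.56, adjusted p = 0.0511), and DESeq2 called it. In each of these 3 genes both day 14 libraries were below both day 8 libraries, which with 2 libraries a day does not show a change.

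Some regulators of heart muscle also fell. Of 29 tested cardiac transcription factors and regulators of myofibril assembly, 6 fell and 1 rose (median log2 fold change -0.94, or -0.96 with genes of few counts at their ratio or bound). Smyd1, a methyltransferase needed to assemble myosin into sarcomeres, was at 91.7 and 97.5 CPM at day 8 and at 16.7 and 24.2 CPM at day 14 (log2FC -2.20, SE 0.28, adjusted p = 0.00123). Rbm24, an RNA-binding splicing regulator of cardiac muscle, was at 58.5 and 55.5 CPM at day 8 and at 15.2 and 11 CPM at day 14 (log2FC -2.12, SE 0.35, adjusted p = 0.00557). The libraries of the days did not overlap for either gene. Isl1, a factor of second heart field progenitors, was at 10.9 and 9.86 CPM at day 8 and at 1.52 and 0.511 CPM at day 14 (log2FC -3.35, SE 0.70, adjusted p = 0.0183). Hand1, a factor of the early ventricle and of extraembryonic mesoderm, was at 60.4 and 67.1 CPM at day 8 and at 20.1 and 12.8 CPM at day 14 (log2FC -1.96, SE 0.38, adjusted p = 0.0123). Nr2f2, an atrial and venous nuclear receptor, was the member that rose (1.31, adjusted p = 0.0116). Nkx2-5 was not tested because it did not pass the filter on low counts. Of 26 tested calcium handling and ion channel genes, 3 fell and 1 rose, with 15 log2 fold changes below 0 and 11 above (median -0.28). Over all genes tested 1.57% fell and 2.47% rose. Ryr2, the calcium release channel of the sarcoplasmic reticulum, was at 96.1 and 80.6 CPM at day 8 and at 39.8 and 33.4 CPM at day 14 (log2FC -1.27, SE 0.27, adjusted p = 0.0187). Hrc, a calcium-binding protein of that organelle, was at 51.1 and 39.2 CPM at day 8 and at 9.73 and 6.89 CPM at day 14 (log2FC -2.44, SE 0.42, adjusted p = 0.00657). Atp2a2, the calcium pump that fills it and that many cell types express, was at 342 and 366 CPM at day 8 and at 334 and 344 CPM at day 14 (-0.06, adjusted p = 0.904). Cacna1g, a T-type calcium channel, was the member that rose (3.92, adjusted p = 0.00792).

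Of these muscle genes Ttn and Smyd1 passed without any 1 of the 8 libraries, and Myl7 was not called by DESeq2. Myl7 lost its call without any 1 of the 4 wild type libraries (-2.70 to -3.36). The call of Myl4 was lost without any 1 of the 4 wild type libraries (-1.31 to -1.87). For Nebl, no call was made without day 8 replicate 1 (-2.19) or day 14 replicate 2 (-2.17). Rbm24 lost its call without any wild type library except day 14 replicate 1 (-1.90 to -2.16). The call of Isl1 was lost without any 1 of the 4 wild type libraries (-2.74 to -4.26). For Hand1, no call was made without any wild type library except day 14 replicate 1 (-1.66 to -2.03). Nr2f2 lost its call without any 1 of the 4 wild type libraries (1.23 to 1.38). The call of Ryr2 was lost without any 1 of the 4 wild type libraries (-1.14 to -1.40). For Hrc, no call was made without any wild type library except day 14 replicate 1 (-2.21 to -2.62). Cacna1g lost its call without day 8 replicate 1 (3.02) or day 14 replicate 2 (3.70). The thick filament list's count that fell was 1 without any wild type library; that of the thin filament list was 0 without day 8 replicate 1 or day 14 replicate 2; that of the regulators was 1 without any wild type library except day 14 replicate 1 and 3 without day 14 replicate 1; and that of calcium genes was 0 without any wild type library except day 14 replicate 1 and 1 without day 14 replicate 1. The counts that rose were 0 without any wild type library and 2 without either Rybp-null day 8 library for the regulators and 0 without day 8 replicate 1 or day 14 replicate 2 for calcium genes. The summed level of 10 cardiomyocyte markers was 2654 and 2181 CPM at day 8 and 1051 and 938 CPM at day 14. That sum includes Ttn, Myl7, Myl4, Ryr2, Tnnt2, Myh6 and Myh7, so it is no separate measure of cardiomyocyte content. The part of changing cell numbers in the results for muscle genes was not tested.

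**Figure D4:**
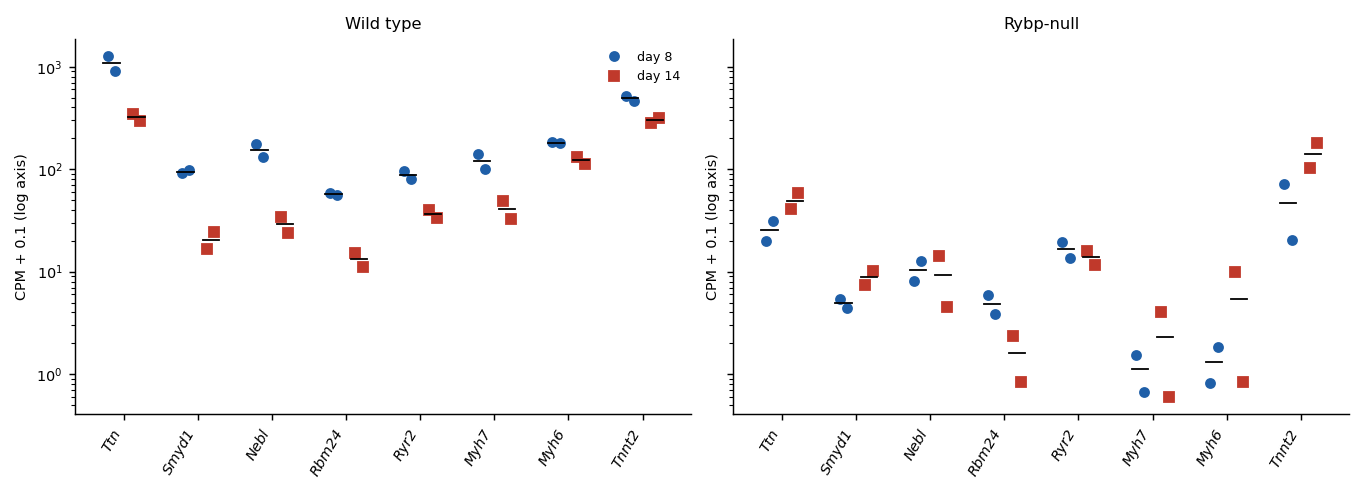
Level of 8 heart muscle genes in wild type (left) and Rybp-null (right) libraries, as CPM + 0.1 on a log axis, with circles for day 8, squares for day 14 and bars for means of n = 2. In wild type all 8 genes are lower in both day 14 libraries; in Rybp-null libraries Ttn, Smyd1 and Tnnt2 are higher in both day 14 libraries, from lower levels.

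Endothelial genes fell without exception among those that passed. Of 24 tested, 6 fell and none rose (median log2 fold change -1.39), and the summed level of 7 endothelial markers was 466 and 452 CPM at day 8 and 198 and 153 CPM at day 14. Tek, which encodes the angiopoietin receptor TIE2, was at 204 and 193 CPM at day 8 and at 64.2 and 64.3 CPM at day 14 (log2FC -1.63, SE 0.20, adjusted p = 0.00117). Erg, an ETS transcription factor of endothelium, was at 35.8 and 45.9 CPM at day 8 and at 10.3 and 11 CPM at day 14 (log2FC -1.94, SE 0.31, adjusted p = 0.00478). Tal1, shared by endothelium and blood precursors, was at 43.1 and 24.2 CPM at day 8 and at 5.78 and 8.42 CPM at day 14 (log2FC -2.23, SE 0.39, adjusted p = 0.00776). Kdr, the main VEGF receptor, was at 152 and 137 CPM at day 8 and at 79.4 and 43.6 CPM at day 14 and Pecam1, a junction protein, at 30.7 and 34.7 CPM at day 8 and at 16.4 and 20.2 CPM at day 14. Neither passed (-1.24, adjusted p = 0.0642 and -0.83, adjusted p = 0.130). Tek passed without any 1 of the 8 libraries. The call of Erg was lost without day 8 replicate 2 (-1.74) or day 14 replicate 2 (-1.98). For Tal1, no call was made without day 8 replicate 1 (-1.76), day 14 replicate 1 (-1.99) or day 14 replicate 2 (-2.53). On the list, genes that fell numbered 2 without day 8 replicate 1 or day 8 replicate 2 and 1 without day 14 replicate 2. Of 14 tested endocardium and Notch genes none passed in either direction by edgeR's test, and 3 had an unadjusted p under 0.05; DESeq2 called none, and the fit to the 4 wild type libraries alone called 2 of 10 higher.

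The few smooth muscle genes that passed went in both directions. Of 18 tested, 3 fell and 1 rose (median log2 fold change 0.06), where 1.57% of all genes tested fell and 2.47% rose. Acta2, smooth muscle alpha actin, which early cardiomyocytes also express, was at 942 and 861 CPM at day 8 and at 375 and 296 CPM at day 14 (log2FC -1.43, SE 0.27, adjusted p = 0.0108). Mylk, the myosin light chain kinase, was the member that rose, at 29.7 and 15.5 CPM at day 8 and at 178 and 245 CPM at day 14 (log2FC 3.23, SE 0.56, adjusted p = 0.0194). Cald1, caldesmon, was at 4371 and 4309 CPM at day 8 and at 4310.4 and 3797 CPM at day 14 (-0.10, adjusted p = 0.833). The epicardium, the outer layer of the heart, makes retinoic acid and gives rise to fibroblasts and smooth muscle. Of 22 tested epicardial and retinoic acid genes 5 rose and 1 fell (median 0.80). Aldh1a1, a retinaldehyde dehydrogenase, was at 0 and 0.564 CPM at day 8 and at 89.1 and 117 CPM at day 14, a ratio of 349 (95% counting interval 96.1 to 2883), with log2FC 8.28, SE 0.79, adjusted p = 0.000381, and Aldh1a2, the enzyme of that family that acts in the embryo's mesoderm, at 0.958 and 2.82 CPM at day 8 and at 15.2 and 26.3 CPM at day 14 (log2FC 3.41, SE 0.62, adjusted p = 0.00850). Wt1, an epicardial transcription factor, was at 126 and 101 CPM at day 8 and at 554 and 609.8 CPM at day 14 and did not pass (log2FC 2.35, SE 0.74, adjusted p = 0.185). Aldh1a1 passed without any 1 of the 8 libraries. Acta2 lost its call without any wild type library except day 14 replicate 1 (-1.26 to -1.49). The call of Mylk was lost without any wild type library except day 14 replicate 1 (2.83 to 3.77). For Aldh1a2, no call was made without any wild type library except day 14 replicate 1 (2.87 to 4.39). The smooth muscle list's count that fell was 0 without any wild type library except day 14 replicate 1 and 1 without day 14 replicate 1, and that rose 0 without any wild type library except day 14 replicate 1. For the epicardial list the count that rose was 2 without day 8 replicate 1 and 1 without day 8 replicate 2 or day 14 replicate 2, and that fell 0 without any wild type library except day 14 replicate 1 and 2 without either Rybp-null day 8 library.

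Of 23 tested cholesterol and lipid synthesis genes 12 fell and none rose, and all 23 had a log2 fold change below 0, with a median of -1.22 against 0.00 over all genes. Msmo1, a methylsterol oxidase, was at 264 and 246 CPM at day 8 and at 132 and 95.2 CPM at day 14 (log2FC -1.17, SE 0.18, adjusted p = 0.00436). Cyp51, the lanosterol demethylase, was at 158 and 166 CPM at day 8 and at 78.2 and 59.5 CPM at day 14 (log2FC -1.23, SE 0.20, adjusted p = 0.00452). Lss, lanosterol synthase, was at 149 and 139.8 CPM at day 8 and at 58.1 and 47.5 CPM at day 14 (log2FC -1.46, SE 0.26, adjusted p = 0.00850). All 3 enzymes were lower in both day 14 libraries. Scd1, which makes monounsaturated fatty acids, went from 52.0 ± 3.45 to 19.8 ± 4.22 CPM (-1.39, adjusted p = 0.00922). Srebf2, the transcription factor that drives the pathway, was at 83.7 and 67.1 CPM at day 8 and at 54.4 and 43.9 CPM at day 14 and did not pass (-0.62, adjusted p = 0.199). Msmo1 lost its call without any wild type library except day 14 replicate 1 (-0.95 to -1.22). The call of Cyp51 was lost without day 8 replicate 2 (-1.20) or day 14 replicate 2 (-1.05). For Lss, no call was made without any wild type library except day 14 replicate 1 (-1.31 to -1.5). Scd1 lost its call without any wild type library except day 14 replicate 1 (-1.19 to -1.46). The list's count of genes that fell was 2 without day 8 replicate 1 and 0 without day 8 replicate 2 or day 14 replicate 2, whereas its median log2 fold change stayed between -1.42 and -0.93 in those fits.

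Promoters are shown for 3 of the 5 members that fell and have a promoter in the set searched, and levels of these 3 are given above. The motifs were searched on both strands of the 250 bases before the start site: TCACNCCAC, a form of the sterol regulatory element that SREBP factors bind, and CCAAT, the box bound by NF-Y, which acts beside SREBP in sterol genes. Capitals mark CCAAT, or ATTGG where it lies on the other strand, and the sequences are from RefSeq, build GRCm38.p6, 5′ to 3′ toward the start site.
Msmo1, chr8:64733579-64733828, minus strand: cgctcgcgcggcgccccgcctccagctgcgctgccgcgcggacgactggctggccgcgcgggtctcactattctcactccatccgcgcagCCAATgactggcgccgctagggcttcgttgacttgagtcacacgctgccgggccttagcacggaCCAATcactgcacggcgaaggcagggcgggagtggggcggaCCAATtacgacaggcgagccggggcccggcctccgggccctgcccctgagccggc
Cyp51, chr5:4104698-4104947, minus strand: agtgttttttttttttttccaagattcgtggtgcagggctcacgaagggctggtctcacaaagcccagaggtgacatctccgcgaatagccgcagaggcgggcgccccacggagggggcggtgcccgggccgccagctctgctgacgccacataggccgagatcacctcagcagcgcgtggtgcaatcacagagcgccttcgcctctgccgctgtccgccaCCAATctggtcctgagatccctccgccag
Lss, chr10:76531355-76531604, plus strand: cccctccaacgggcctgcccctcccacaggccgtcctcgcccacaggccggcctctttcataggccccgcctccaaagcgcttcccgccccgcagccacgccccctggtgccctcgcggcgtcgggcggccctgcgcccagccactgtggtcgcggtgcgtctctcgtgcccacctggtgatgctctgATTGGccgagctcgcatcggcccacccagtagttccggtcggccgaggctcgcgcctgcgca
CCAAT was in all 5 promoters of members that fell and that the table holds, and in 15 of the 19 promoters of the list's 15 matched genes, against 33.8% of 32851 promoters of the same length. TCACNCCAC was in 1 of those 19 and in none of the 5, against 1.05% of all; no match says only that these letters are not in this window. The motif letters cannot share bases in the sequences shown, since those hold no TCACNCCAC.

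A few genes on the list of fatty acid oxidation and muscle energy rose. Of 19 tested, 3 rose and none fell (median log2 fold change 0.55), where 2.47% of all genes tested rose and 1.57% fell. Cpt1a, which admits fatty acids to mitochondria, was at 2.56 and 1.41 CPM at day 8 and at 21.6 and 29.4 CPM at day 14 (log2FC 3.68, SE 0.44, adjusted p = 0.000964). Lpl, lipoprotein lipase, which is also abundant in macrophages and heart, was at 60.7 and 41.4 CPM at day 8 and at 142 and 151 CPM at day 14 (log2FC 1.52, SE 0.28, adjusted p = 0.00873). Cpt1a passed without any 1 of the 8 libraries. The call of Lpl was lost without day 8 replicate 2 (1.27) or day 14 replicate 2 (1.48). List members that rose numbered 1 without day 8 replicate 2 or day 14 replicate 2. None of 28 tested genes of the mitochondrial respiratory chain passed by edgeR's test, 0 of them had an unadjusted p under 0.05, and DESeq2 called none.

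Mitotic genes had slightly lower values at day 14. All 33 tested mitotic genes had a log2 fold change below 0 (median -0.47), but only Plk1, a kinase that drives mitosis, fell, from 162 ± 16.6 to 92.9 ± 9.71 CPM (log2FC -0.80, SE 0.19, adjusted p = 0.0327). Fitted to the 4 wild type libraries alone, 0 of 33 rose and 16 fell. Mki67, the proliferation marker, was at 1060.2 and 1019.9 CPM at day 8 and at 735 and 727 CPM at day 14 and did not pass (-0.51, adjusted p = 0.0796); DESeq2 called it. Of 30 tested DNA replication genes 2 fell, Lig1, DNA ligase I (-0.75, adjusted p = 0.0330), and Rfc4, a clamp loader subunit (-1.98, adjusted p = 0.00589), with a median of -0.45; with the 4 wild type libraries alone 6 fell and 1 rose. Of 23 tested CDK inhibitor and p53 target genes 2 rose, among them Cdkn1a, the inhibitor p21, from 146 ± 3.15 to 275 ± 41.4 CPM (0.91, adjusted p = 0.0158). For these lists, the shares over all genes tested were 2.47% that rose and 1.57% that fell. For Plk1, no call was made without any 1 of the 4 wild type libraries (-0.69 to -0.91). Lig1 lost its call without any 1 of the 4 wild type libraries (-0.56 to -0.91). The call of Rfc4 was lost without day 8 replicate 2 (-1.96), day 14 replicate 1 (-1.94) or day 14 replicate 2 (-2.01). For Cdkn1a, no call was made without any wild type library except day 14 replicate 1 (0.75 to 0.93). The mitotic list's count that fell was 0 without any wild type library and 5 without either Rybp-null day 8 library; for replication it was 1 without day 8 replicate 1 and 0 without day 8 replicate 2, day 14 replicate 1 or day 14 replicate 2; and the CDK inhibitor list's count that rose was 0 without any wild type library except day 14 replicate 1, 1 without day 14 replicate 1 and 4 without either Rybp-null day 14 library.

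Imprinted genes, expressed from 1 parental allele and known for control of growth, were among the genes that moved. Of 28 tested, 2 rose (H19 and Dcn, the latter counted with the matrix as well) and 5 fell, with a median log2 fold change of -0.10, or -0.02 with genes of few counts at their ratio or bound. H19, a long noncoding RNA, was at 4665 and 4465 CPM at day 8 and at 6899.6 and 8748 CPM at day 14 (log2FC 0.78, SE 0.15, adjusted p = 0.0113). Its neighbour Igf2, which encodes an insulin-like growth factor, was at 10022 and 10400.2 CPM at day 8 and at 14090.5 and 18541 CPM at day 14 and did not pass (0.68, adjusted p = 0.161). Plagl1, a zinc finger factor, was at 12543 and 11149 CPM at day 8 and at 20110.5 and 22688 CPM at day 14 and did not pass (0.85, adjusted p = 0.0707), though DESeq2 and scaling by library totals were among the fits that called it. Mest went from 436 ± 26.0 to 195 ± 29.0 CPM (-1.16, adjusted p = 0.00318) and Peg3, a zinc finger gene, from 12373 ± 318 to 8234 ± 487 CPM (-0.59, adjusted p = 0.0409). Meg3, a noncoding RNA of another imprinted locus, was at 2219 and 2042 CPM at day 8 and at 2349 and 1858 CPM at day 14 (-0.02, adjusted p = 0.994). H19 lost its call without any wild type library except day 14 replicate 1 (0.60 to 0.81). The call of Mest was lost without day 8 replicate 2 (-1.10) or day 14 replicate 2 (-1.01). For Peg3, no call was made without any 1 of the 4 wild type libraries (-0.53 to -0.65). On the list, genes that rose numbered 1 without any wild type library except day 14 replicate 1, 4 without either Rybp-null day 14 library and 5 without either Rybp-null day 8 library, and that fell 1 without day 8 replicate 1, 0 without day 8 replicate 2 or day 14 replicate 2 and 2 without day 14 replicate 1. DESeq2 called 4 that rose and 5 that fell.

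Several groups held no or few called genes, where 2.47% of all genes tested rose and 1.57% fell. At those shares a list of such a size can hold none or few, so low counts do not show that a group was unchanged. None of 34 tested ribosomal protein genes (1 at an unadjusted p under 0.05) and none of 10 tested skeletal muscle genes (0 at that threshold) passed edgeR's test, and DESeq2 called none of either. Of 36 Polycomb genes 1 rose and 1 fell, and of 27 Hox genes 1 fell. The Polycomb rise was not called without day 8 replicate 1 or day 14 replicate 2, and neither that list's fall nor the Hox fall was called without any 1 wild type library or by DESeq2. The pluripotency genes were low on both days and 1 rose and 2 fell among 30: Nanog was at 16.3 and 27.3 CPM at day 8 and at 36.5 and 21.4 CPM at day 14 against 4088 CPM in wild type ES cells (0.39, adjusted p = 0.793 for day 14 against day 8). Pou5f1, which encodes OCT4, was at 0.958 and 1.41 CPM at day 8 and at 0.912 and 1.53 CPM at day 14 against 172 CPM (0.06, adjusted p = 0.994). With 1 library left out, 0 to 1 pluripotency genes rose and 0 to 3 fell. Epithelial genes moved in both directions: of 14 tested gut epithelium genes 1 rose and 1 fell, and 10 had a log2 fold change below 0 (median -0.22). Of 24 tested visceral endoderm and liver genes 3 rose and none fell (median -0.26), and of these none was called without day 8 replicate 2 or day 14 replicate 2. Krt7, a keratin of simple epithelia, rose, at 3.83 and 7.61 CPM at day 8 and at 53.2 and 63.6 CPM at day 14 (log2FC 3.33, SE 0.39, adjusted p = 0.000821), and passed without any 1 of the 8 libraries. Krt8, another such keratin, fell, at 31.9 and 34.9 CPM at day 8 and at 13.7 and 6.89 CPM at day 14 (log2FC -1.71, SE 0.39, adjusted p = 0.0290). Krt8 lost its call without any wild type library except day 14 replicate 1 (-1.29 to -1.77). Slc4a4, a sodium bicarbonate transporter, rose too, at 17.9 and 22.8 CPM at day 8 and at 106 and 137 CPM at day 14 (log2FC 2.57, SE 0.32, adjusted p = 0.00117), and passed without any 1 of those libraries. Cdh1, the epithelial cadherin, was at 47.3 and 89.1 CPM at day 8 and at 103 and 40.1 CPM at day 14 (0.06, adjusted p = 0.999), with replicate 1 again the higher of the day 14 libraries.

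The same days were compared in Rybp-null cultures, which share no library with the wild type groups, though both tests use the shared estimate of spread. There 678 genes rose (4.29% of those tested) and 539 fell (3.41%), 7.69% together. Without Rybp-null day 14 replicate 2 these counts were 383 and 230, and without Rybp-null day 14 replicate 1 the number that fell was 359. Of the 390 genes that rose in wild type, 269 also rose in null cultures, and of the 249 that fell, 136 also fell; the sign of the log2 fold change matched for 382 and 239 of them. Across the 639 genes called in wild type the log2 fold changes of the genotypes had a Pearson correlation of 0.84, a description across genes, which are not independent; over all genes it was 0.52. Single genes named above that passed in the same direction there were Alas2 (-2.87, adjusted p = 0.000207), Csf1r (4.85, adjusted p = 0.000154) and Dcn (3.92, adjusted p = 5.57e-06), as log2 fold changes in null cultures. Of the 17 tested erythroid genes 15 fell in null cultures, and of the 30 tested macrophage genes 20 rose.

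Ttn was the single gene called in opposite directions. In Rybp-null libraries it was at 19.8 and 31.4 CPM at day 8 and 40.8 and 57.8 CPM at day 14 (0.96, adjusted p = 0.0442), beside -1.77 in wild type. Smyd1 was at 5.32 and 4.32 CPM at day 8 and 7.32 and 10.1 CPM at day 14 there (0.85, adjusted p = 0.169), beside -2.20. Heart muscle markers were scarce in null cultures from day 8 on: the summed level of the 10 cardiomyocyte markers was 128 and 75.1 CPM at day 8 and 189 and 259 CPM at day 14, against 2654 and 2181 CPM at day 8 and 1051 and 938 CPM at day 14 in wild type, and how that bears on the fold changes was not tested. The thick filament list had a median log2 fold change of 0.99 in null cultures, with 1 gene that rose and none that fell. The osteoclast list had a median in null cultures of 0.64: Atp6v0d2 was at 0.484 and 0.288 CPM at day 8 and 0.845 and 0.989 CPM at day 14 (1.16, adjusted p = 0.580), and Acp5 at 15.0 and 8.63 CPM at day 8 and 5.07 and 10.9 CPM at day 14 (-0.56, adjusted p = 0.599). The mitotic list had 31 of 33 genes that fell there (median -1.17), and the cholesterol list 5 of 23 (median -0.69). The differences between genotypes were themselves tested as a genotype-by-day interaction, and edgeR called 0 of 15819 genes (0.0%), with 962 at an unadjusted p under 0.05. It called 2 genes without Rybp-null day 8 replicate 1, 1 without Rybp-null day 8 replicate 2 and 1 without Rybp-null day 14 replicate 1. With all libraries the lowest adjusted p was 0.0669, for Ttn, and Smyd1 had 0.0731. DESeq2 called 8 genes in this interaction, with Ttn, Smyd1, Mki67 and Acp5 among them. For the lists the difference was not tested.

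**Figure D5:**
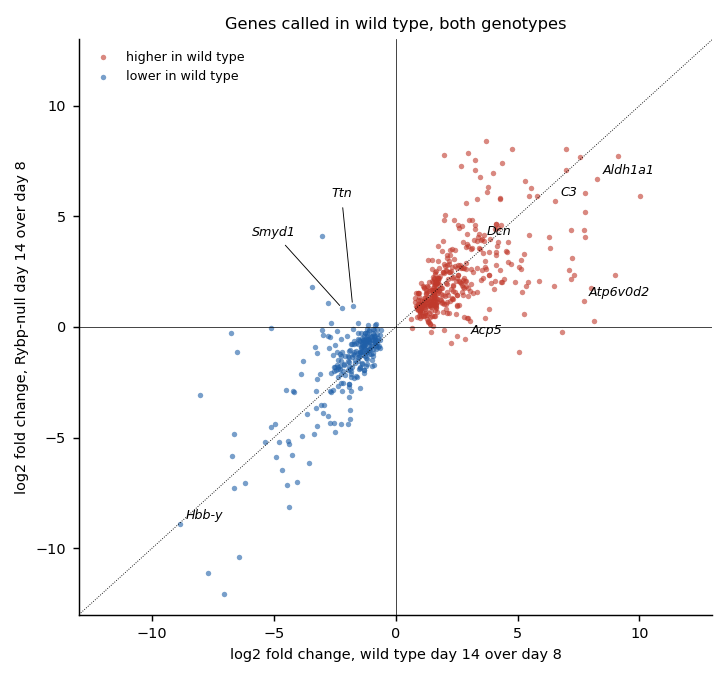
Log2 fold change, day 14 over day 8, in wild type (horizontal) and Rybp-null cultures (vertical) for the 639 genes called in wild type; each point is 1 gene, the dotted line marks equal change, and genes of the text are labelled. Of the 390 that rose in wild type, 382 lie above 0 on the vertical axis, and of the 249 that fell, 239 lie below it; Ttn and Smyd1 lie to the left of 0 and above it.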

How the data were processed

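RNA was sequenced from 10 libraries, of which 4 are described here. The authors deposited raw read counts per Ensembl gene, 1 column per library; per the submitters' processing notes, TopHat, HTSeq, DESeq and build mm9 were used, with no role, version or option stated. Of 36191 gene identifiers, 30946 matched a symbol. Counts were fitted with edgeR 4.0.16 (R 4.3.3): TMM scaling, a filter on low counts (filterByExpr, minimum count 10), a robust quasi-likelihood fit to all 10 libraries in 6 genotype and day groups with 4 residual degrees of freedom, two-sided tests and Benjamini-Hochberg adjustment over 15819 genes; SEs were derived from the F statistics. The same fit was also run on simulated data, with results that are not reported here. With 2 libraries a group and totals of 3028153 to 3812029 counts, low counts limit precision; fold changes against 3 or fewer counts are given as ratios with 95% counting intervals, or as bounds in which 3 counts stand for a group with none.

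Members and gene lists were chosen with earlier results of these data known. Named genes were Rybp and 9 others whatever their p, the 12 largest rises and 12 largest falls, the 10 called genes of highest level (these with a mean of at least 10 CPM in the higher group), and in each list up to 6 called per direction and up to 3 that did not pass; the text names a selection of these, with Lum and Omd added after their values were seen, and some are not reported here. Alternatives were DESeq2 1.42.0, other scalings and filters, fewer libraries in the fit, a replicate block, and each library left out.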

Additional observations from a re-analysis of the deposited data

How the results depend on the processing

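The wild type counts of 390 genes that rose and 249 that fell became 1023 and 828 when only the 4 wild type libraries were fitted, 770 and 474 with no filter on low counts, and 174 and 107 with a replicate block. Leaving out 1 library at a time gave 62 to 555 that rose and 35 to 384 that fell. DESeq2, other scalings, a minimum count of 30 and a fit to the 8 libraries of days 8 and 14 kept both counts within 1.5 times. The Rybp-null counts of 678 and 539 became 1037 and 855 with no filter and 332 and 201 with the block, and ranged over 383 to 623 and 230 to 620 with 1 library left out. The genotype-by-day interaction, with 0 calls by edgeR, had 2 genes higher and 6 lower by DESeq2 and 26 and 39 with no filter; with 1 library left out it had 0 to 2 genes lower and 0 higher. The cause of these shifts was not tested.

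Same-numbered libraries did not deviate together: the correlation of their deviations from the group means was -0.014 in wild type and -0.211 in Rybp-null cultures. With 2 libraries a day, such a correlation across genes cannot show whether same-numbered libraries came from a shared culture or batch. No pairing was assumed in the main fit. A block with the null day 14 numbers crossed, chosen after seeing the data, gave 1066 and 880 in null cultures and 0 higher and 6 lower in the interaction. Of the 110 genes named, 6 that did not pass changed sign under some setting. With 1 library left out, Meg3 ranged from -0.20 to 0.14, Pou5f1 from -0.38 to 0.37, Nanog from -0.031 to 0.82, Vim from -0.17 to 0.11, Omd from -0.19 to 0.52 and Cdh1 from -0.77 to 0.59 as log2 fold changes. Cdh1 was at -0.012 with the replicate block. Totals of 3028153 to 3812029 counts limit genes of low level, for which differences may not be detectable at this depth.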
